A study of Mus musculus with 24 samples.

Results

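This report describes 8 genes for transcriptional regulators of granulocytes and monocytes in mouse bone marrow: the C/EBP family genes Cebpa, Cebpb, Cebpd and Cebpe, Spi1 (encoding PU.1), Gfi1, Runx1 and Tle3. They were chosen by name, with earlier results of these data known. Each is the row of the expression table whose Ensembl gene ID, with its version removed, carries that symbol in GENCODE release M21. This gave 8 of 54752 genes. The gene lists used below were chosen in the same way, so counts beside the shares of all tested genes are descriptions and not independent support. RNA-seq was carried out on 24 bone marrow libraries, 1 from each of 24 mice, namely 6 ground WT (GC-WT), 6 flown WT (FL-WT), 6 ground Nrf2-KO (GC-KO) and 6 flown Nrf2-KO (FL-KO) mice. All were male mice of the C57BL/6 line, wild type (WT) or germline knockouts of Nrf2 (Nrf2-KO), the gene of a transcription factor of the oxidative stress response that is deleted in every cell of the knockout. FL mice spent 31 days in space and were sampled 2 days after landing. They had been 8 weeks old when moved to the launch site, 3 weeks before launch. GC mice were kept on the ground in Japan under matched housing, and their age is not given in the sources used here. After landing, blood of FL mice was measured on the US West Coast and that of GC mice in Japan, so flight and site of handling cannot be told apart. Marrow cells of the right pelvis and tibia had been cryopreserved before RNA extraction, without sorting.

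As background, hematopoietic stem cells become granulocytes and monocytes through a small set of DNA-binding proteins. RUNX1 acts in stem and progenitor cells and upstream of PU.1, PU.1 opens myeloid enhancers, C/EBPα is needed to form granulocyte-monocyte progenitors, and C/EBPε drives the terminal, granule-forming stages of neutrophils. C/EBPβ supports granulocyte production in emergencies and C/EBPδ is an acute-phase member of the family, while GFI1 represses monocyte genes in neutrophil precursors and TLE3 is a Groucho co-repressor that binds no DNA itself and is recruited by RUNX and other factors.

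The deposited values are TPM, a transcript abundance divided by transcript length and scaled to the same total in every library, and the number of reads behind them is unknown. Nfe2l2, the gene of Nrf2, stood at 17.1 to 26.1 TPM in GC-WT mice and 11.4 to 27.3 TPM in FL-WT mice, against 3.60 to 7.18 TPM in GC-KO mice and 2.22 to 4.31 TPM in FL-KO mice, so the targeted gene matched every genotype label. All 9 sets of marrow lineage markers were detected in every group, led by mature neutrophil genes with summed levels of 24352 TPM or more. Between 35.4% and 59.6% of all TPM came from 5 small structural RNAs (6 gene IDs), and the median tested gene was lower by 0.22 to 0.29 on the log2 scale in the first group of all 4 comparisons made here. Calls below are therefore also given with median-of-ratios scaling, which divides each library by the median ratio of its genes to their average over all libraries. These factors were 1.303 and 1.15 in GC-KO mice 11 and 12, against 0.869 to 1.05 in the other 4 GC-KO mice. They were 1.41 and 1.22 in FL-WT mice 7 and 8, which stood above the other 4 FL-WT mice (0.737 to 1.09). These were also the 2 mice with the highest levels of their group for 7 of the 8 genes, Cebpb being the exception, and results that rest on them are given with and without them.

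Because the comparison between genotypes concerns a transcription factor that binds the antioxidant response element, the promoters of the genes were searched for its core, TGACNNNGC, on both strands. RefSeq promoter windows of GRCm38.p6, from 250 bases before to 50 bases after the transcript start, were available for 5 of the 8 genes (Cebpa, Cebpb, Gfi1, Runx1 and Tle3). The 150 bases that end at or next to the start are shown for the 2 genes with a match, capitals marking it, and for Cebpa, which had none. All 3 genes lie on the plus strand.
Tle3, chr9:61372216-61372365: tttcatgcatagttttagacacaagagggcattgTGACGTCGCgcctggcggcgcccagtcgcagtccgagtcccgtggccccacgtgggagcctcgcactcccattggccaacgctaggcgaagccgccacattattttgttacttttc
Cebpb, chr2:167688767-167688916: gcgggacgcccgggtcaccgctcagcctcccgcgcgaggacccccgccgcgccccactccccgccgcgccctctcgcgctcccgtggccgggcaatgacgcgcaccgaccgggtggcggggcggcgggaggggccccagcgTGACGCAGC
Cebpa, chr7:35119143-35119292: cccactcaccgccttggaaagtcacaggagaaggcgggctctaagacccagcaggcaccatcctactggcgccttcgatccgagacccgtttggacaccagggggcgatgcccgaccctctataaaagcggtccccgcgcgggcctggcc

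Counting the first transcribed base as 1, the match began at position -116 in Tle3 and at -7 in Cebpb, where it runs across the start. These letters are common, occurring in 12.4% of 32817 windows of this length, and a match is a description and not a binding site. The C/EBP motif TTGCNNAA was found in 1 of the windows of Gfi1, at -143, and in 10.8% of all windows. The RUNX motif TGTGGT was found on the minus strand in the upstream window of Runx1, at 29 and 37, and in 16.8% of all windows. The PU.1 core GAGGAAG was in none of these windows and in 13.6% of all windows. The 3 C/EBP genes on chromosomes 7, 2 and 16 (Cebpa, Cebpb and Cebpd) are single-exon genes, and Cebpe on chromosome 14 has 2 exons. Cebpb was the richest in G and C of the 8, with 67.2% in its representative transcript, followed by Cebpa (62.6%) and Cebpe (61.5%). Runx1, with 46.4%, was below the median of the tested genes, which was 49.5%.

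Since TPM is scaled for length, levels can be ordered between genes. In GC-WT mice, Spi1 and Cebpe were the most abundant, with means of 51.5 ± 6.11 and 50.8 ± 5.68 TPM (SD, n = 6), and Spi1 exceeded Cebpe in 4 of 6 mice. Cebpb followed at 23.6 ± 7.04 TPM, and Tle3 and Cebpd were next at 17.3 ± 3.81 and 17.3 ± 2.72 TPM. Cebpa and Runx1 did not differ beyond their spread, at 11.4 ± 1.84 and 11.3 ± 2.31 TPM, and Gfi1 was the lowest at 5.43 ± 0.89 TPM, below Runx1 in 6 of 6 mice. The order was not the same in FL-KO mice. Tle3 moved from place 4 to place 7, at 2.59 ± 0.51 TPM, where Runx1 exceeded it in 6 of 6 mice. Cebpd moved up to place 3 at 14.4 ± 2.01 TPM, with Cebpb just below it at 11.9 ± 5.34 TPM and exceeded in 4 of 6 mice. Cebpe and Spi1 remained the most abundant 2 genes in all 4 groups.

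**Figure D1:**
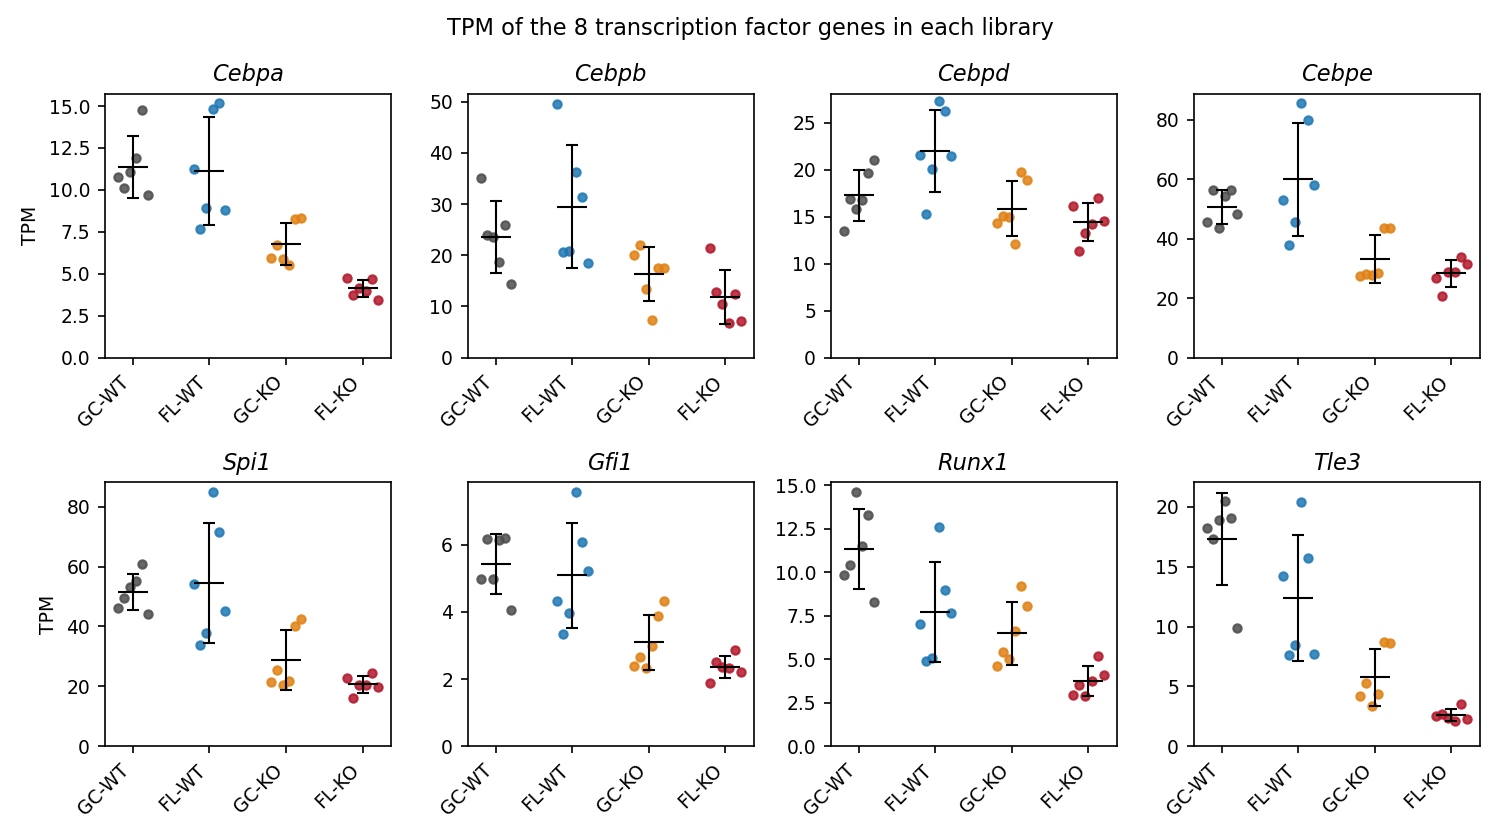
TPM of each of the 8 genes (y axis, linear, starting at 0) in every library (1 point per mouse) of the 4 groups, with the group mean and SD in black. The FL-KO points lie below all FL-WT points for Cebpa, Cebpe, Spi1, Gfi1 and Tle3, and the 2 highest GC-KO points of Spi1, Cebpe and Tle3 are mice 11 and 12.

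The 4 groups were compared for each gene with limma on log2(TPM + 1), in 1 fit over all 24 libraries and with p-values adjusted over the 12373 tested genes by the Benjamini-Hochberg method. A gene was called downregulated or upregulated when its adjusted p was under 0.1 and its fold change at least 2. The flown genotypes are FL-KO vs. FL-WT, the ground genotypes GC-KO vs. GC-WT, flight in WT mice FL-WT vs. GC-WT, and flight in Nrf2-KO mice FL-KO vs. GC-KO, each difference being the first group minus the second. Tle3 was downregulated in knockout marrow in both genotype comparisons, and 4 other genes passed both thresholds in flown mice on the deposited scale. Between the flown genotypes, 5 of 8 genes were downregulated (Tle3, Spi1, Cebpb, Cebpa and Cebpe), where 8.36% of all tested genes were, and none was upregulated, where 0.097% were. Between the ground genotypes only Tle3 was downregulated, where 3.04% of tested genes were, and none was upregulated, where 0.129% were. In neither flight comparison was any of the 8 called, where 0.938% (WT) and 2.13% (Nrf2-KO) of tested genes were downregulated and 0.0647% and 0.0% upregulated. The groups did not overlap and the knockout or flown group was lower for 5 genes between flown genotypes (20.6% of tested genes), 3 between ground genotypes (9.15%), 1 with flight in Nrf2-KO mice (18.4%) and none with flight in WT mice (4.19%). The counts of all tested genes rest in part on single mice. Between the ground genotypes, 376 genes were downregulated with all mice, 605 without GC-KO mouse 11, 580 without mouse 12 and 974 without both, as well as 248 without GC-KO mouse 4 and 581 without GC-WT mouse 10, and between the flown genotypes 1034 with all mice and 501 without FL-WT mice 7 and 8. With flight, 116 were downregulated in WT mice, against 77 without FL-WT mouse 5, 193 without mouse 7 and 248 without mice 7 and 8, and 264 in Nrf2-KO mice, against 172 without GC-KO mouse 11 and 130 without mice 11 and 12. The median log2 fold change of the 8 was -1.11 between the flown genotypes, against -0.25 for all tested genes, and -0.67 against -0.22 between the ground genotypes. In the flight comparisons, the medians were -0.02 against -0.24 in WT and -0.43 against -0.29 in Nrf2-KO mice. In unsorted marrow, fewer cells of a type and less RNA per cell cannot be told apart.

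**Figure D2:**
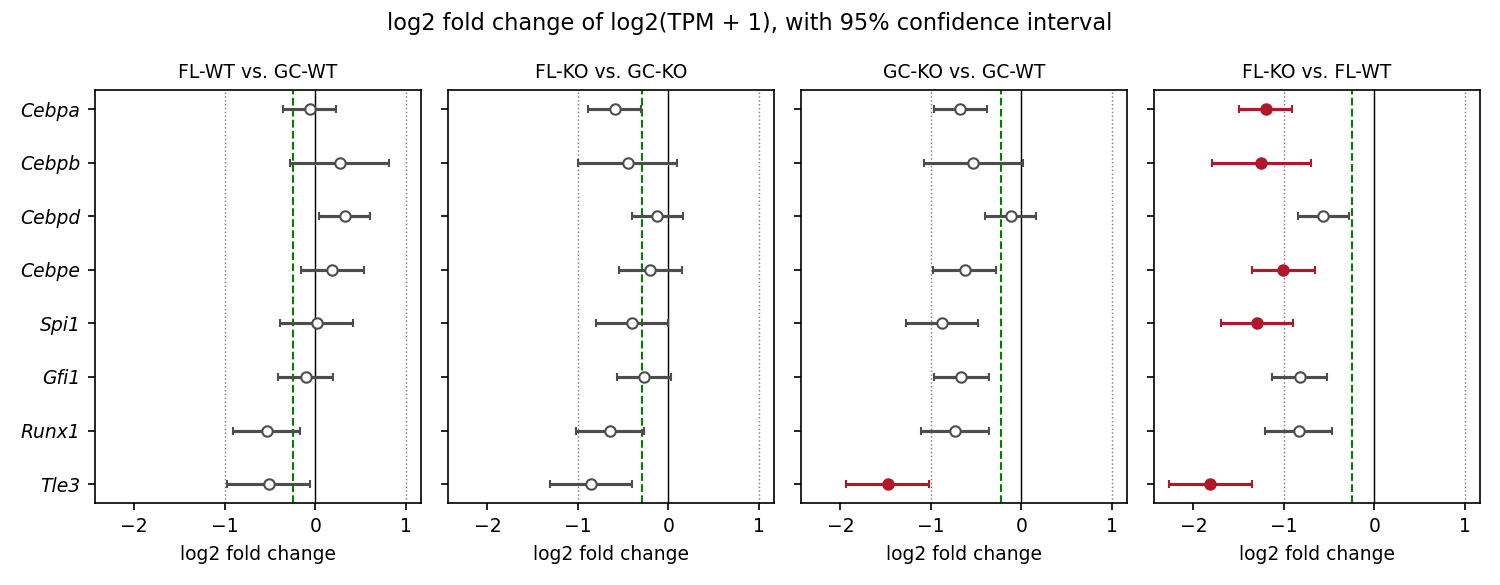
Log2 fold change of log2(TPM + 1) (x axis) of the 8 genes in the 4 comparisons, with the 95% confidence interval, red where the gene was called. Dotted lines mark a fold change of 2, and the dashed green line is the median of all 12373 tested genes. The 8 genes lie around 0 in FL-WT vs. GC-WT and all lie left of the dashed line in FL-KO vs. FL-WT.

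Tle3, the co-repressor gene (ENSMUSG00000032280, chr9:61372366-61418497 of GRCm38, plus strand, 20 exons), showed the largest difference of the 8 between genotypes. Its lowest, median and highest values were 9.84, 18.6 and 20.5 TPM in GC-WT mice, 7.59, 11.3 and 20.4 TPM in FL-WT mice, 3.32, 4.82 and 8.71 TPM in GC-KO mice, and 2.11, 2.44 and 3.53 TPM in FL-KO mice. Every knockout mouse was below every WT mouse of the same flight status. Mean TPM was 3.01-fold lower in GC-KO than GC-WT mice and 4.77-fold lower in FL-KO than FL-WT mice. The log2 fold change was -1.48 (SE 0.22, adjusted p = 0.000169) in the former and -1.81 (SE 0.22, adjusted p = 1.17e-06) in the latter comparison. Only 0.202% of tested genes were as low or lower between the ground genotypes, and 0.590% between the flown genotypes. With flight, the log2 fold change of Tle3 was -0.51 (adjusted p = 0.0795) in WT and -0.85 (adjusted p = 0.00466) in Nrf2-KO mice, both under the fold change of 2. FL-KO mice overlapped GC-KO mice through 1 library, and the WT groups overlapped widely, with mouse 10 of the GC-WT group far below its 5 group mates.

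Spi1 encodes PU.1, the ETS factor of myeloid and B lineage enhancers. The gene (ENSMUSG00000002111) has 5 exons and lies at chr2:91082390-91115756 on the plus strand. It ranged from 44.1 to 60.8 TPM (median 51.4) in GC-WT mice and from 33.8 to 84.8 TPM (median 49.8) in FL-WT mice. In knockout mice it ranged from 20.6 to 42.5 TPM (median 23.6) in GC-KO mice and from 16.0 to 24.4 TPM (median 20.5) in FL-KO mice. Within each flight status, all knockout mice were below all WT mice, but GC-KO mice 11 and 12 were above the lowest FL-WT mice, and after median-of-ratios scaling the ground genotypes overlapped. On the log2 scale it differed by -0.88 (SE 0.19, adjusted p = 0.00116) between the ground genotypes and -1.30 (SE 0.19, adjusted p = 8.20e-06) between the flown genotypes. The first of these missed the fold change of 2. GC-KO mice 11 and 12 had 40.1 and 42.5 TPM, and Spi1 was called without mouse 12 (-1.003) and without both (-1.17). Flight gave a log2 fold change of 0.01 (95% CI -0.38 to 0.41) in WT and -0.40 (adjusted p = 0.0936) in Nrf2-KO mice.

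Cebpa, the gene of the factor of granulocyte-monocyte progenitors, differed between genotypes in both flown and ground mice on the deposited scale. It lies at chr7:35119293-35121928 on the plus strand (ENSMUSG00000034957). Its lowest, median and highest values were 9.67, 10.9 and 14.8 TPM in GC-WT mice, 7.68, 10.1 and 15.2 TPM in FL-WT mice, 5.53, 6.35 and 8.33 TPM in GC-KO mice, and 3.44, 4.07 and 4.76 TPM in FL-KO mice. The FL-KO mice were lower than all mice of the other 3 groups. Mean TPM was 2.69-fold lower in FL-KO than FL-WT mice, or -1.20 on the log2 scale (SE 0.14, adjusted p = 9.88e-07). Without FL-WT mice 7 and 8 this was -0.98 and no longer reached a fold change of 2. Between the ground genotypes the log2 fold change was -0.67 (adjusted p = 0.000915). It was the only gene of the 8 whose groups did not overlap with flight in Nrf2-KO mice, where 18.4% of tested genes were lower without overlap. After median-of-ratios scaling these groups overlapped for all 8 genes. Its log2 fold change in that comparison was -0.59 (SE 0.14, adjusted p = 0.00276). With flight in WT mice it was -0.06 (adjusted p = 0.754).

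Cebpe, the gene for terminal neutrophil maturation (ENSMUSG00000052435), lies at chr14:54710360-54712174 on the minus strand. It had 43.4, 51.3 and 56.5 TPM as lowest, median and highest values in GC-WT mice, 37.9, 55.6 and 85.6 TPM in FL-WT mice, 27.4, 28.3 and 43.6 TPM in GC-KO mice and 20.8, 28.8 and 33.9 TPM in FL-KO mice. All FL-KO mice were below all FL-WT mice, while GC-KO mice 11 and 12 reached the range of GC-WT mice. The log2 fold change was -1.01 (SE 0.17, adjusted p = 2.83e-05) between the flown genotypes, just past the fold change of 2, and -0.75 without FL-WT mice 7 and 8, which had 85.6 and 79.7 TPM. The call was also lost when 1 library alone was left out, namely FL-WT mouse 7 (-0.90) or 8 (-0.92) or FL-KO mouse 1 (-0.99) or 2 (-0.93). Between the ground genotypes it was -0.62 (adjusted p = 0.00508). With flight it was 0.19 (adjusted p = 0.399) in WT and -0.20 (adjusted p = 0.327) in Nrf2-KO mice.

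Cebpb, the gene of the emergency granulopoiesis factor (ENSMUSG00000056501, chr2:167688915-167690418, plus strand), had the widest relative spread of the 8 in GC-WT mice, with a coefficient of variation of 29.9%, and in FL-KO mice, with 45.03%, while Tle3 spread more widely in the other 2 groups. Its lowest, median and highest values were 14.4, 23.7 and 35.2 TPM in GC-WT mice, 18.4, 26.1 and 49.4 TPM in FL-WT mice, 7.27, 17.4 and 22.04 TPM in GC-KO mice and 6.77, 11.4 and 21.4 TPM in FL-KO mice. All pairs of groups overlapped, FL-KO and FL-WT mice only through the highest FL-KO mouse. On the log2 scale Cebpb differed by -1.25 (SE 0.27, adjusted p = 0.000398) between the flown genotypes and -0.53 (adjusted p = 0.117) between the ground genotypes. With flight it was 0.27 (95% CI -0.28 to 0.82) in WT and -0.45 (95% CI -0.995 to 0.098) in Nrf2-KO mice, intervals wide enough to hold differences in both directions.

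Cebpd, the acute-phase member (ENSMUSG00000071637, chr16:15887286-15891031, plus strand), differed least between genotypes. It ranged from 13.5 to 21.1 TPM (median 16.8) in GC-WT mice, from 15.3 to 27.3 TPM (median 21.6) in FL-WT mice, from 12.1 to 19.7 TPM (median 15.1) in GC-KO mice and from 11.4 to 17.0 TPM (median 14.4) in FL-KO mice. All pairs of groups overlapped. Cebpd differed by -0.57 (adjusted p = 0.00144) between the flown genotypes and -0.12 (adjusted p = 0.523) between the ground genotypes. It was the only one of the 8 with an adjusted p under 0.1 and a higher level in FL-WT than GC-WT mice, by 0.32 on the log2 scale (SE 0.14, adjusted p = 0.0753), where 0.994% of tested genes were higher by that rule. With flight in Nrf2-KO mice its log2 fold change was -0.12 (adjusted p = 0.464).

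Gfi1, the repressor gene (ENSMUSG00000029275, chr5:107716657-107726036, minus strand, 6 exons), was expressed at the lowest level of the 8 in every group, from 4.07 to 6.22 TPM (median 5.57) in GC-WT mice, 3.35 to 7.59 TPM (median 4.78) in FL-WT mice, 2.33 to 4.33 TPM (median 2.83) in GC-KO mice and 1.88 to 2.86 TPM (median 2.35) in FL-KO mice. FL-KO mice were below all FL-WT mice, and mouse 12 alone of the GC-KO mice reached the GC-WT range. The log2 fold change was -0.83 (SE 0.15, adjusted p = 5.53e-05) between the flown genotypes and -0.66 (adjusted p = 0.00117) between the ground genotypes. A pseudocount of 1 weighs on a gene this low. With a pseudocount of 0.1 the first value was -1.04 and past both thresholds, where 1984 of 12373 tested genes were downregulated. With flight it was -0.11 (adjusted p = 0.588) in WT and -0.27 (adjusted p = 0.134) in Nrf2-KO mice.

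Runx1, which acts earliest in the lineage, is an 8-exon gene at chr16:92601466-92826149 on the minus strand (ENSMUSG00000022952). It had values of 8.31, 10.96 and 14.6 TPM (lowest, median, highest) in GC-WT mice, 4.92, 7.36 and 12.6 TPM in FL-WT mice, 4.61, 6.01 and 9.21 TPM in GC-KO mice and 2.89, 3.63 and 5.18 TPM in FL-KO mice. Every pair of groups that was compared overlapped. On the deposited scale it was the only gene of the 8 besides Tle3 lower with an adjusted p under 0.1 in all 4 comparisons. Its log2 fold change was -0.54 (adjusted p = 0.0299) with flight in WT mice, -0.64 (adjusted p = 0.00782) with flight in Nrf2-KO mice, -0.73 (adjusted p = 0.00270) between the ground genotypes and -0.84 (adjusted p = 0.000483) between the flown genotypes, each short of a fold change of 2. By adjusted p alone, 39.0%, 53.1%, 42.9% and 47.2% of all tested genes were lower in these 4 comparisons, in the same order. Of the 8 genes, 2, 4, 6 and 8 were lower by that rule.

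The size of these differences depended on how libraries were scaled. With median-of-ratios scaling, the median tested gene stood at 0.00 with flight in WT mice, -0.01 with flight in Nrf2-KO mice, 0.03 between the ground genotypes and 0.04 between the flown genotypes. None was called with flight, where 0.129% of tested genes were downregulated in WT and 0.178% in Nrf2-KO mice. Tle3 was then the only gene called between the flown genotypes (-1.47, adjusted p = 7.05e-07), where 3.08% of tested genes were downregulated, and between the ground genotypes (-1.15, adjusted p = 0.000216), where 0.501% were. Between the flown genotypes, 7 of 8 genes kept an adjusted p under 0.1 and a lower level, where 31.2% of tested genes did. Spi1 stood at -0.87, Cebpb at -0.84, Cebpa at -0.83, Cebpe at -0.58, Gfi1 at -0.49 and Runx1 at -0.47, and Cebpd at -0.14 (95% CI -0.34 to 0.05) was the exception. On the scaled values the ranges of FL-KO and FL-WT mice did not overlap for 6 of the 8 genes, Cebpb and Cebpd being the others, where 17.8% of tested genes were lower without overlap. They did not overlap for Cebpa and Tle3 between ground genotypes, where 3.96% of tested genes were lower without overlap. Between the ground genotypes, 6 of 8 were lower with an adjusted p under 0.1, where 27.8% of tested genes were, and Cebpd was higher (0.22, adjusted p = 0.0633), where 29.8% of tested genes were.

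The log2 fold change was also related to base composition and transcript length across all genes. Over 12370 genes, its Spearman correlation with the G and C content of the transcript was -0.52 between the flown genotypes and -0.43 between the ground genotypes. It was -0.29 with flight in Nrf2-KO mice and -0.02 with flight in WT mice. The Spearman correlation with transcript length was -0.40 with flight in WT mice and -0.34 with flight in Nrf2-KO mice. It was -0.36 between the ground genotypes and -0.29 between the flown genotypes. These are descriptions across genes, which share libraries and are not replicates. Cebpb lay at percentile 99.8, Cebpa at 99.0 and Cebpe at 98.4 of tested genes in G and C content, whereas Runx1 lay at 33.2. The longest transcripts of the 8 were those of Runx1 and Tle3, at percentiles 88.4 and 84.4 in length. After removal of each library's trend with G and C content and transcript length, none of the 8 was called in any comparison, where 0.186%, 0.145%, 0.323% and 1.17% of tested genes were downregulated (in the order flight in WT, flight in Nrf2-KO, ground genotypes, flown genotypes). Tle3 stood at -0.98 (95% CI -1.23 to -0.73, adjusted p = 2.64e-06) between the flown genotypes and -0.83 (95% CI -1.08 to -0.58, adjusted p = 0.000154) between the ground genotypes. Between the flown genotypes, Cebpa shrank to -0.35 (adjusted p = 0.000158) and Cebpe to -0.45 (adjusted p = 0.000407), and Spi1 stood at -0.62 (adjusted p = 4.86e-05). Gfi1 at -0.08 (95% CI -0.22 to 0.07) and Cebpd at -0.01 (95% CI -0.22 to 0.20) no longer had an adjusted p under 0.1. Between the ground genotypes, Cebpa at -0.11 (95% CI -0.24 to 0.03) and Gfi1 at -0.12 (95% CI -0.27 to 0.03) no longer had one either. Spi1 (-0.43, adjusted p = 0.00286), Runx1 (-0.39, adjusted p = 0.00231) and Cebpe (-0.31, adjusted p = 0.0115) stayed lower there, and Cebpd was higher (0.34, adjusted p = 0.0117). Removing a trend across genes also removes any true difference that follows it, and how much of the change in Cebpa or Cebpe belongs to the trend was not tested.

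**Figure D3:**
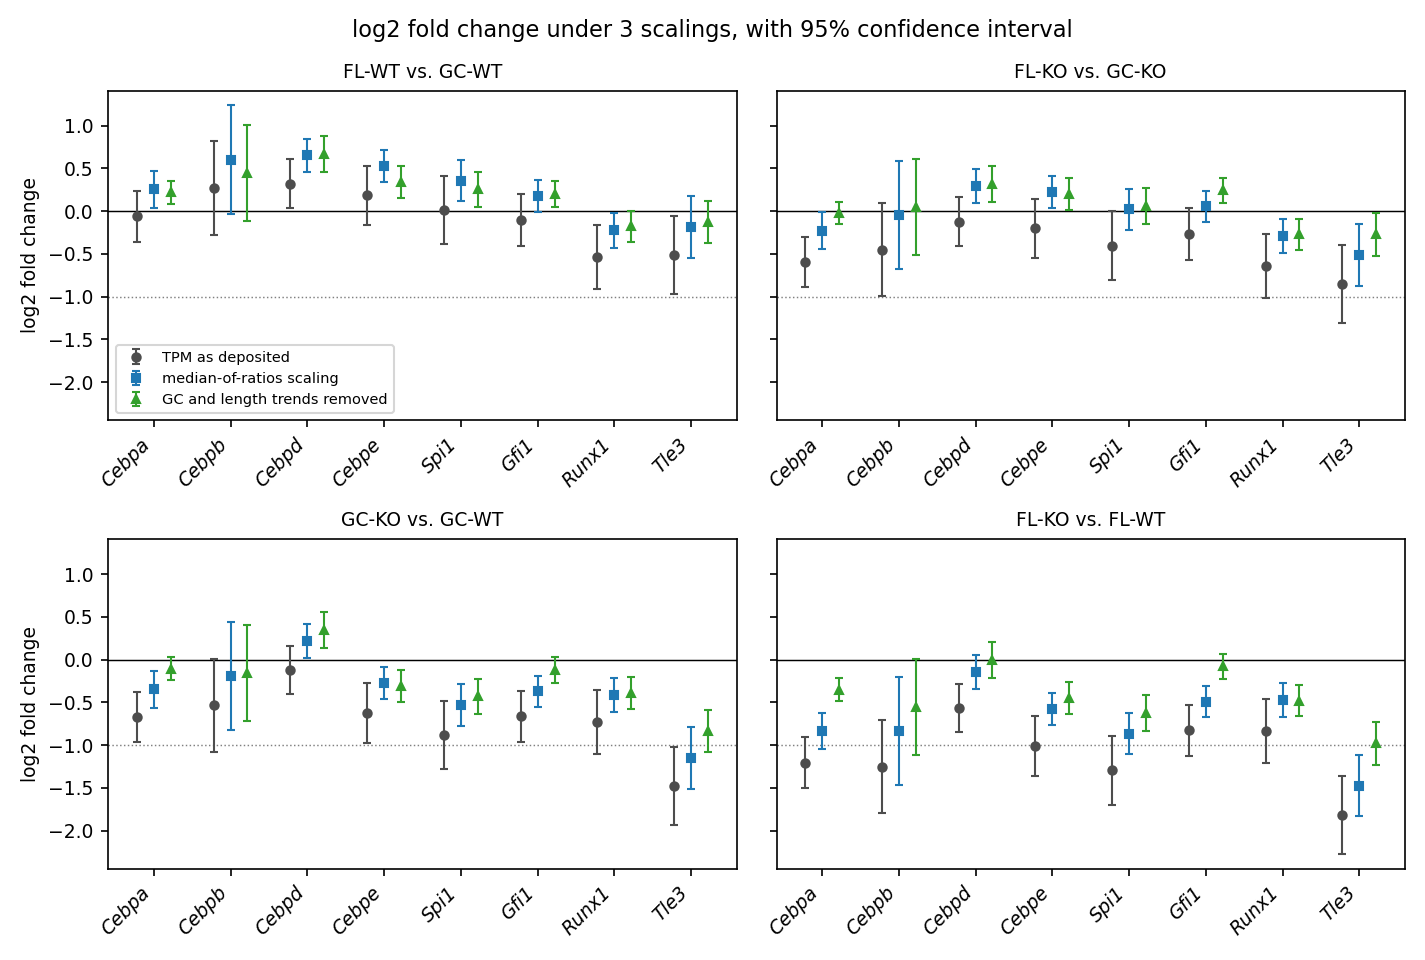
Log2 fold change (y axis) of the 8 genes in the 4 comparisons on TPM as deposited (grey circles), after median-of-ratios scaling (blue squares) and after removal of the trends with G and C content and transcript length (green triangles), with 95% confidence intervals. The dotted line marks a fold change of 2 downwards. Tle3 stays the lowest in both genotype comparisons on all 3 scales. In FL-WT vs. GC-WT the points of Cebpb, Cebpd, Cebpe and Spi1 lie above 0 on all 3.

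In the comparison of flight in WT mice, the scaling changed the direction of 2 genes. On TPM as deposited, 4 genes were higher and 4 lower in FL-WT than GC-WT mice, while after median-of-ratios scaling 6 were higher and 2 lower. By adjusted p alone the split as deposited was 1 higher and 2 lower, where 0.994% of tested genes were higher and 39.0% lower. After scaling it was 4 higher and 1 lower, where 17.4% of tested genes were higher and 15.9% lower. On the scaled values, Cebpd ranged from 10.6 to 16.6 (median 12.8) in GC-WT mice and from 19.4 to 23.6 (median 21.2) in FL-WT mice. Cebpe ranged from 29.1 to 44.2 (median 40.0) in GC-WT mice and from 51.4 to 65.3 (median 53.5) in FL-WT mice. Neither pair of ranges overlapped, where 2.77% of tested genes were higher without overlap. The log2 fold change on this scale was 0.65 for Cebpd (SE 0.10, adjusted p = 7.79e-05) and 0.53 for Cebpe (SE 0.09, adjusted p = 0.000249), followed by Spi1 at 0.36 (adjusted p = 0.0278) and Cebpa at 0.25 (adjusted p = 0.0720). Cebpa and Gfi1 were the 2 genes that turned from lower to higher, while Runx1 (-0.22, adjusted p = 0.0926) and Tle3 (-0.19, adjusted p = 0.452) kept negative values. With the trends removed, Cebpd stood at 0.67 (adjusted p = 0.000119) and Cebpe at 0.34 (adjusted p = 0.00824). Runx1 then stood at -0.18 (adjusted p = 0.146) and Tle3 at -0.13 (adjusted p = 0.475). Of 6 mature neutrophil markers, none was called with flight in WT mice. By adjusted p alone, where 0.994% of tested genes were higher as deposited and 17.4% after scaling, 4 and 5 of these markers were higher. Their summed level on the deposited scale ranged from 24352 to 48689 TPM in GC-WT mice and from 39090 to 54314 TPM in FL-WT mice, ranges that overlap, none of the 6 was at 0, and the part of these cells in the levels of Cebpd and Cebpe was not tested.

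In Nrf2-KO mice, all 8 log2 fold changes with flight were negative on the deposited scale, where the median tested gene stood at -0.29. Of the 8, 4 (Cebpa, Spi1, Runx1 and Tle3) had an adjusted p under 0.1, where 53.1% of tested genes were lower by that rule. After median-of-ratios scaling 4 of the 8 genes were lower and 4 higher. On that scale Tle3 (-0.51, adjusted p = 0.0287), Runx1 (-0.29, adjusted p = 0.0276) and Cebpa (-0.23, adjusted p = 0.0947) were lower by adjusted p, where 21.6% of tested genes were, and Cebpd (0.29, adjusted p = 0.0234) and Cebpe (0.23, adjusted p = 0.0582) were higher, where 18.1% of tested genes were. The comparisons share groups, FL-KO mice entering this one and the flown genotypes, so their values are not independent of each other.

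Whether the difference between FL and GC mice was unlike in the 2 genotypes was tested as an interaction, (FL-KO - GC-KO) - (FL-WT - GC-WT). All 8 interaction values were negative on the deposited scale, with a median of -0.40 against -0.06 for all tested genes. None passed an adjusted p of 0.1 in limma, each having an adjusted p of 0.999951, and 2 of 12373 genes (0.0162%) passed downwards. Without adjustment, 2 of the 8 had a limma p under 0.05, Cebpa (-0.53) and Cebpd (-0.45), where 3.03% of tested genes were lower by that rule. After median-of-ratios scaling they were 3, Cebpa (-0.48), Cebpd (-0.36) and Cebpe (-0.30), where 7.65% of tested genes were, and again none passed by adjusted p, where 0.259% did. A difference between WT and Nrf2-KO mice in the change of these genes with flight was therefore not detectable with 6 mice a group.

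The make-up of the C/EBP family within a library does not depend on a scaling that multiplies the whole library by 1 factor, such as median-of-ratios scaling, although removal of trends with base composition would change it. The TPM of Cebpa, Cebpb, Cebpd and Cebpe summed to 103 ± 8.80 in GC-WT mice, 123 ± 33.1 in FL-WT mice, 72.1 ± 14.2 in GC-KO mice and 58.8 ± 8.02 in FL-KO mice (SD, n = 6). Cebpe held the largest part, 49.3% ± 3.92, 48.7% ± 5.51, 46.0% ± 5.63 and 48.5% ± 6.57 of the sum in the same order. Cebpa held 11.03% ± 1.22 in GC-WT mice, 9.06% ± 0.67 in FL-WT mice, 9.44% ± 0.50 in GC-KO mice and 7.05% ± 0.56 in FL-KO mice. Its share was therefore lower in all 4 comparisons, and FL-KO mice, at 6.08% to 7.69%, lay below both the FL-WT (8.25% to 9.94%) and the GC-KO mice (8.80% to 10.3%). An exact permutation test on ranks (two-sided) gave p = 0.00216 between the flown genotypes and with flight in Nrf2-KO mice, which is the smallest p that 6 against 6 mice can give. For Cebpa the same exact test gave p = 0.00866 with flight in WT mice and p = 0.0260 between the ground genotypes, and the latter passed 0.05 in only 5 of 12 tests that left out 1 mouse.

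Cebpd moved the other way. Its share was 16.9% ± 3.17 in GC-WT mice, 18.3% ± 2.05 in FL-WT mice, 22.1% ± 1.17 in GC-KO mice and 24.6% ± 1.34 in FL-KO mice. All FL-KO mice (23.4% to 26.4%) were above all FL-WT mice (15.9% to 21.1%), with p = 0.00216 in the exact permutation test. Exact tests gave p = 0.0260 between the ground genotypes, p = 0.0152 with flight in Nrf2-KO mice and p = 0.310 with flight in WT mice, the first of these under 0.05 in 5 of 12 tests that left out 1 mouse. Cebpb held 22.8% ± 6.22, 23.9% ± 6.69, 22.5% ± 6.54 and 19.9% ± 7.43 in the groups taken in that order again, and neither Cebpb nor Cebpe had an exact p under 0.39 in any comparison. With Benjamini-Hochberg adjustment over these 16 exact tests, p was 0.0115 for Cebpa and Cebpd between the flown genotypes and 0.0115 for Cebpa with flight in Nrf2-KO mice. It was 0.0346 for Cebpa with flight in WT mice, 0.0485 for Cebpd with flight in Nrf2-KO mice, and 0.0594 for both genes between the ground genotypes, where neither stayed under 0.05. A share of a gene can move because another gene of the sum did. Cebpa and Cebpd also differ in base composition, with 62.6% and 51.6% G and C, and the part of the trend with G and C content in their shares was not tested.

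**Figure D4:**
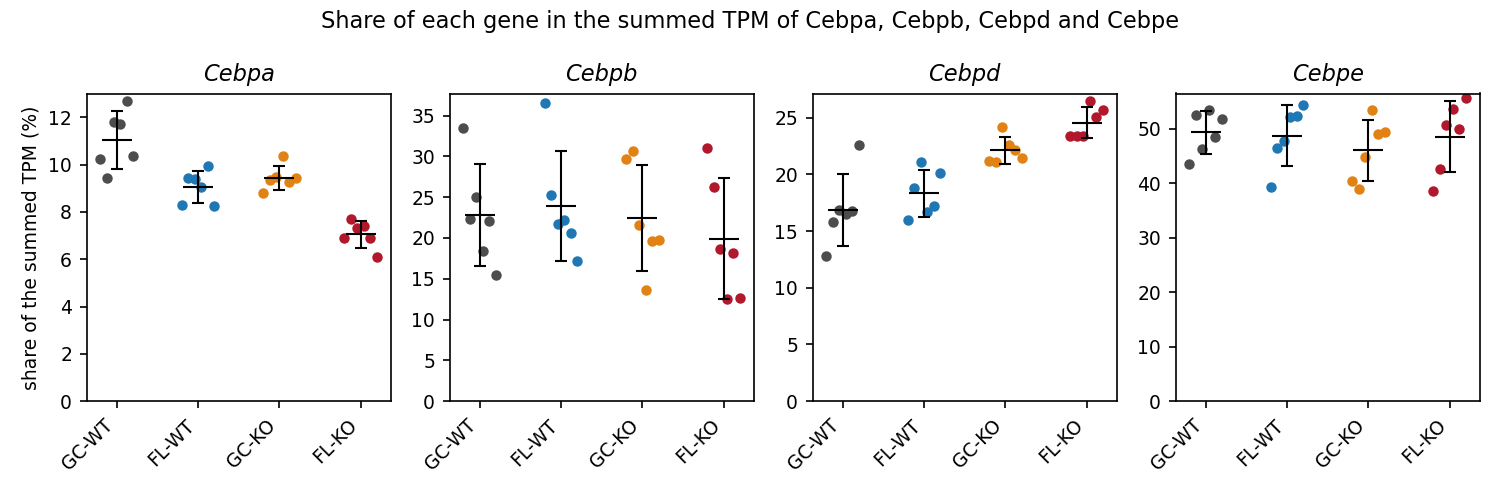
Share of each C/EBP gene in the summed TPM of Cebpa, Cebpb, Cebpd and Cebpe (y axis, %, starting at 0 in each panel) in every library (1 point per mouse) of the 4 groups, with mean and SD in black. In FL-KO mice the points of Cebpa lie below and those of Cebpd above all FL-WT points.

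Other genes of these pathways were taken from 6 lists of 54 genes, 48 of them tested. Of these, 13 were downregulated between the flown genotypes (8.36% of all tested genes were), 8 between the ground genotypes (3.04%), 3 with flight in Nrf2-KO mice (2.13%) and 1 with flight in WT mice (0.938%), and none was upregulated. With median-of-ratios scaling, 8 of the 48 were still downregulated between the flown genotypes, where 3.08% of tested genes were, and none in the other 3 comparisons. The receptors through which myeloid growth factors act were the list with the largest share. All 6 were downregulated between the flown genotypes and 4 of 6 between the ground genotypes, with medians of -1.57 and -1.14. Csf2rb, the shared beta chain of the GM-CSF, IL-3 and IL-5 receptors, stood at -1.75 (adjusted p = 2.62e-06) and -1.12 (adjusted p = 0.000856) in these comparisons. Csf1r, the M-CSF receptor of monocytes, stood at -1.74 (adjusted p = 4.18e-06) and -1.24 (adjusted p = 0.000597). Csf3r, the G-CSF receptor of neutrophils, stood at -1.66 (adjusted p = 3.22e-06) and -1.16 (adjusted p = 0.000575), and Il6ra at -1.48 and -1.20. With median-of-ratios scaling 5 of the 6 receptors were downregulated between the flown genotypes (3.08% of tested genes) and none between the ground genotypes (0.501%), and with the trends removed Csf1r and Csf2rb remained in the former. None of the 6 was called in either flight comparison, with log2 fold changes of Csf3r of -0.41 in WT and -0.91 in Nrf2-KO mice, and of Csf1r of -0.39 and -0.89.

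Of 12 ETS and RUNX relatives, the same 3 were downregulated in both genotype comparisons on the deposited scale. With median-of-ratios scaling all 3 calls were kept between the flown genotypes and none elsewhere, and with trends removed no relative was called. Elf4, an ETS factor, stood at -1.61 between the flown genotypes and -1.31 between the ground genotypes. Spib, the B and plasmacytoid dendritic cell relative of PU.1, stood at -1.38 and -1.32, and it was the only gene of the lists downregulated with flight in both genotypes as deposited (-1.09 in WT and -1.15 in Nrf2-KO mice). Runx3, a relative of Runx1, stood at -1.27 and -1.13. Cbfb, the partner that RUNX proteins need to bind DNA stably, was not called in any comparison. Of 6 C/EBP relatives and modifiers, none was called in any comparison, including Cebpg and the Tribbles genes Trib1 and Trib2, whose products promote degradation of C/EBPα. The median of this list between the flown genotypes, -0.23, was near that of all tested genes.

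Of 9 tested GFI1 and Groucho partners, none was called between genotypes, among them Kdm1a and Rcor1, which act with GFI1, and the Tle3 relatives Tle1, Tle4 and Tle5. By adjusted p alone 8 of 9 were lower in both genotype comparisons, where 47.2% (flown) and 42.9% (ground) of tested genes were, with medians of -0.75 against -0.25 and -0.56 against -0.22. After median-of-ratios scaling 6 and 5 of the 9 were lower by that rule, where 31.2% and 27.8% of tested genes were. Gfi1b, the erythroid and megakaryocyte paralog of Gfi1, was downregulated with flight in Nrf2-KO mice (-1.22, adjusted p = 0.000124). Of 7 tested monocyte and dendritic cell factors, Klf4 (-1.19) and Irf8 (-1.03) were downregulated between the flown genotypes and Irf4 (-1.03) between the ground genotypes. Of 8 tested stem and progenitor factors, Myc (-1.14) and Gata2 (-1.13) were downregulated between the flown genotypes, and Tal1 (-1.20) with flight in Nrf2-KO mice. None of the calls of Gfi1b, Klf4, Irf8, Irf4, Myc, Gata2 and Tal1 was kept with median-of-ratios scaling. Tle2, Tle6, Egr2, Batf3, Hoxa9 and Mecom did not pass the filter on low values.

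**Figure D5:**
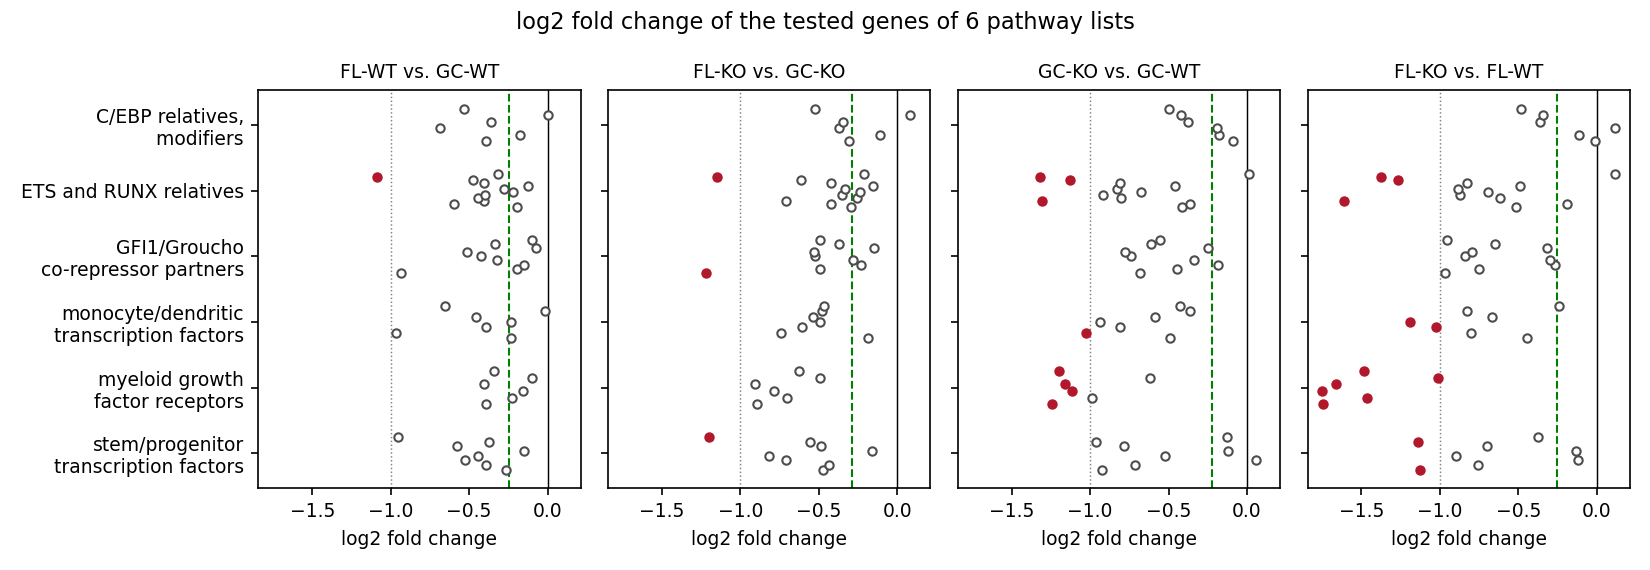
Log2 fold change of log2(TPM + 1) (x axis) of each tested gene (1 point per gene) of 6 pathway lists in the 4 comparisons, red where the gene was called. The dotted line marks a fold change of 2 downwards and the dashed green line the median of all tested genes. All 6 growth factor receptors are red in FL-KO vs. FL-WT and 4 of them in GC-KO vs. GC-WT.

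Markers of the cell types in marrow were examined beside the 8 genes. Of the 48 tested, 11 were downregulated between the flown genotypes (8.36% of all tested genes), 4 between the ground genotypes (3.04%), 7 with flight in Nrf2-KO mice (2.13%) and 3 with flight in WT mice (0.938%). With median-of-ratios scaling, Mpo, Ltf and Mmp9 alone were kept in both genotype comparisons, Klf1 and Slc4a1 alone with flight in Nrf2-KO mice, and none with flight in WT mice. Of 5 promyelocyte markers, Mpo (-2.39) and Elane (-1.04) were downregulated between the flown genotypes and Mpo (-1.72) between the ground genotypes, whereas Ms4a3 stood at 0.03 and 0.19. Of 5 secondary granule markers, the products of C/EBPε-dependent stages, Ltf (-2.33) and Lcn2 (-1.13) were downregulated between the flown genotypes and Ltf (-1.62) between the ground genotypes, whereas Camp stood at 0.02 and 0.19. Of 6 mature neutrophil markers, Mmp9 was downregulated in both (-2.85 and -1.92), whereas S100a8 stood at 0.09 and 0.48. Mpo and Mmp9 were also downregulated with flight in Nrf2-KO mice on the deposited scale. Of 6 monocyte and macrophage markers, Cd68 (-1.01) and Mpeg1 (-1.003) were downregulated between the flown genotypes and none between the ground genotypes.

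The summed promyelocyte markers ranged from 649.7 to 1021 TPM in GC-WT mice, 556.2 to 1251 TPM in FL-WT mice, 409.1 to 844.7 TPM in GC-KO mice and 368.6 to 523.1 TPM in FL-KO mice. The summed monocyte and macrophage markers ranged from 460.02 to 613.8 TPM in GC-WT mice, 405.6 to 747.0 TPM in FL-WT mice, 317.8 to 542.1 TPM in GC-KO mice and 289.5 to 420.8 TPM in FL-KO mice. No marker of these lists was at 0 in a group. Both sums were thus lower in many knockout mice, as were most of the 8 genes. Cebpb and Cebpd had no adjusted p under 0.1 between the ground genotypes. The summed mature neutrophil markers had higher means in knockout mice, which the single markers did not share as a set. Means of this sum were 33728 and 44617 TPM in GC-WT and GC-KO mice, and 48728 and 50839 TPM in FL-WT and FL-KO mice, with overlapping ranges. By adjusted p alone, 4 of the 6 were lower and 0 higher between the flown genotypes, where 47.2% of tested genes were lower. Between the ground genotypes 2 were lower and 2 higher, where 42.9% of tested genes were lower. Means of the summed secondary granule markers were 9334 and 6899 TPM in GC-WT and GC-KO mice, and 10721.5 and 6842 TPM in FL-WT and FL-KO mice. The part of these sums in the genotype differences of the 8 genes was not tested. Summed stem and progenitor markers were 4.75 to 6.78 TPM in FL-KO and 7.41 to 15.1 TPM in FL-WT mice, and none of the 4 tested was called.

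Of markers outside the myeloid lineage, 2 of 6 erythroid genes (Slc4a1 and Klf1), 1 of 6 B lineage genes (Cd79a), 1 of 5 T and NK genes (Cd3e) and none of 5 megakaryocyte genes were downregulated between the flown genotypes on the deposited scale, and none of these after median-of-ratios scaling. Between the ground genotypes, Rag1 of the B lineage was the only one of these. Of the erythroid markers, Epor and Slc4a1 were downregulated with flight in WT and Epor, Gata1, Klf1 and Slc4a1 in Nrf2-KO mice. Ppbp was the 1 megakaryocyte gene downregulated with flight in Nrf2-KO mice. Rag1 was downregulated with flight in WT mice. Summed erythroid markers were 786.5 to 1705 TPM in GC-WT mice, 644.8 to 1103 TPM in FL-WT mice, 1149 to 1939 TPM in GC-KO mice and 657.6 to 1047 TPM in FL-KO mice. None of the 8 genes is a marker of these lineages, and the part of the erythroid share in their TPM was not tested.

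Across the 24 libraries the 8 genes varied together to different degrees. Pearson correlations of log2(TPM + 1) between the 28 pairs ran from 0.53 to 0.96 with a median of 0.86. After median-of-ratios scaling they ran from -0.50, for Cebpd with Runx1, to 0.91, with a median of 0.62. These are descriptions over libraries that share 4 groups, and the group differences are part of them. Among the 5025 genes averaging 5 TPM or more, the most similar to Tle3 were Adgre5 (0.996), Mast3 (0.996) and R3hdm2 (0.995), and the same 3 led after scaling, at 0.993 to 0.994. The most similar to Spi1 were Cap1, Mocos and Pgd (each 0.993), to Cebpa Ehd1, Capn1 and Gsn (0.983 to 0.985), and to Cebpe Twf2, Pglyrp1 and Ethe1 (0.975 to 0.981). For Gfi1 they were Alas1, Galns and Tagln2 (0.975 to 0.977), and for Runx1 Mapk1ip1l, Zmynd8 and Ankfy1 (each 0.988).

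Cebpb and Cebpd stood apart in this respect on the deposited scale. The number of genes with a correlation above 0.8 was 39 for Cebpb and 188 for Cebpd, against 1590 to 2418 for the other 6. After median-of-ratios scaling it was 15 for Cebpb, 118 for Cebpd and 188 for Cebpe, against 472 to 975 for the others. The most similar to Cebpb were Zfp36 (0.892), which encodes an mRNA-destabilizing protein induced with immediate early genes, Adam8 (0.875) and Slc16a3 (0.874), and after scaling Mxd1 (0.891), Zfp36 (0.884) and Cxcr4 (0.850). The most similar to Cebpd were Prdx5 (0.945), Sqor (0.942) and Glipr2 (0.939), and after scaling Id1 (0.945), Glipr2 (0.936) and Prdx5 (0.935).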

How the data were processed

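RNA-seq was carried out on unsorted, cryopreserved bone marrow cells of 24 mice, with directional libraries of total RNA. Per the labels and the study's methods, the authors mapped reads to mm10 (GRCm38) with STAR (version 2.6.1) and deposited TPM values per gene from RSEM (version 1.3.1). Columns of the deposited TPM table sum to 1000000 within rounding, no counts were used here, and so the depth and the counting error are unknown. Symbols, positions and transcripts came from GENCODE M21, and 54723 of 54752 gene IDs matched.

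Genes with more than 1 TPM in at least 1 library were tested (12373), as in the study. log2(TPM + 1) was fitted with limma (version 3.58.1, R 4.3.3) with 4 group means. Fold changes are on that scale and understate those of low genes. A gene was called with an adjusted p under 0.1 together with a minimum fold change of 2, without that minimum for the interaction. Trends with G and C content and transcript length were removed with natural splines of 4 degrees of freedom. The script was tested on simulated data. Shares were tested with scipy 1.17.1. Each mouse gave 1 library.

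Alternatives were a pseudocount of 0.1, other filters, scalings, thresholds and variance trends, compared groups alone, a block on mouse number and leaving out single libraries. Leaving out 2 libraries together was added after seeing the data. The 8 genes and all gene lists were chosen with earlier results of these data known. The text names all 8 genes, Nfe2l2, at most 4 called genes per pathway list and comparison beside Csf3r and Csf1r, up to 3 examples per marker list, and the 3 genes most similar to each of the 8. Members of pathway and marker lists named with values or as not called, beyond these, were chosen after their values were seen.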

Additional observations from a re-analysis of the deposited data

Results flagged for a closer look

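Of the 32 combinations of gene and group that were tested for a library far from its group, 1 stood out. Tle3 stood at 9.84 TPM in mouse 10 of the GC-WT group, against 17.3 to 20.5 TPM in the other 5 mice, and this gap was 0.700 of the whole range of the group, above the critical value of 0.625 for 6 samples. Chance gives about 1 such library in 20 groups. Without this mouse each knockout group still lay below the WT group of the same flight status, since the next GC-WT mouse was higher.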

How the results depend on the processing

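Counts of called genes among the 8 stayed within 1.5 times of the values given in 54 of 66 combinations of comparison and setting other than single libraries left out. This includes both flight comparisons and the interaction, where the value given was 0 and another 0 counts as unchanged. It is therefore no measure of how stable the calls between genotypes are. With no minimum fold change the counts were 3 (flight, WT), 4 (flight, Nrf2-KO), 6 (ground genotypes) and 8 (flown genotypes). By that rule 39.0%, 53.1%, 42.9% and 47.2% of tested genes were lower, in the same order, and 0.994% were higher in the first. Between flown genotypes, 1 gene was called with median-of-ratios scaling, 1 with quantile normalization, 0 with trends in G and C content and length removed, and 3 without FL-WT mice 7 and 8. In these settings 381, 309, 145 and 501 of 12373 tested genes (12305 in the last) were downregulated. Between ground genotypes it was 2 without the 5 small RNAs, 2 without GC-KO mice 11 and 12, and 0 with trends removed. There 900 of 14383, 974 of 12313 and 40 of 12373 tested genes were downregulated. With a pseudocount of 0.1, 1 gene (Tle3, -1.05) was called with flight in Nrf2-KO mice, where 925 of 12373 tested genes were downregulated. Leaving out single libraries gave 1 to 2 between ground genotypes, 2 without GC-KO mouse 12, and 4 to 5 between flown genotypes. Without GC-KO mouse 12, 580 of 12359 tested genes were downregulated between ground genotypes. Between flown genotypes, single libraries left out gave 729 to 1251 downregulated genes. The cause of these changes in the counts was not tested.

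Small log2 fold changes changed sign, given here for median-of-ratios, quantile and trends removed in turn. With flight in WT mice they were 0.25, 0.23 and 0.22 for Cebpa and 0.18, 0.18 and 0.20 for Gfi1. With flight in Nrf2-KO mice they were 0.29, 0.25 and 0.31 for Cebpd, 0.23, 0.14 and 0.20 for Cebpe, and 0.057, 0.12 and 0.24 for Gfi1. Spi1 changed with the first (0.020) and last (0.065), and Cebpb with the last (0.046). Between ground genotypes Cebpd stood at 0.22, 0.21 and 0.34. Without the small RNAs, Cebpd stood at 0.050 (flight, Nrf2-KO), Spi1 at -0.0087 (flight, WT) and Runx1 at 0.054 (interaction). Without GC-KO mice 11 and 12, Cebpd was at 0.022 and Cebpe at 0.0080 (flight, Nrf2-KO), and Gfi1 at 0.00601 and Runx1 at 0.092 (interaction). Without FL-WT mice 7 and 8, Cebpe was at -0.071 and Spi1 at -0.28 (flight, WT), and Gfi1 at 0.034 and Runx1 at 0.13 (interaction). The interaction of Gfi1 was 0.045 with trends removed.

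With single libraries left out, log2 fold changes ran from -0.15 to 0.026 for Cebpa and from -0.13 to 0.13 for Spi1 (flight, WT), and from -0.21 to 0.035 for Runx1 (interaction). Shares in the C/EBP sum, in percentage points, differed by -1.40 to 3.26 for Cebpb and -1.74 to 1.31 for Cebpe (flight, WT), by -1.97 to 1.81 for Cebpb (ground genotypes) and by -2.11 to 1.77 for Cebpe (flown genotypes).

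Mouse numbers shared by flown and ground mice did not pair them. The correlation of deviations of same-numbered mice ran from -0.026 to 0.273, and 3 of 12 mice correlated best with their own number. With a replicate block on that number, 0 of the 8 genes were called in either flight comparison or the interaction, as without it. The genotypes compared share no mouse numbers. Without counts, the depth behind low genes such as Gfi1 cannot be judged.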
